A study of Mus musculus with 22 samples.

Results

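Cluster 1 of the dissociated hypothalamic cells is a population of astrocytes, and its 9471 cells made up 17.3% of the 54890 cells of the whole-cell series. Its members are the cells that the deposited annotation assigns to cluster 1 of 20, and their counts were summed within each mouse. The cells came from male ob/ob mice, which lack leptin and become obese and diabetic, aged 11 weeks and each housed alone on Altromin 1310 chow. The mouse was the replicate. The FGF1 group (n = 6) received 3 µg of fibroblast growth factor 1 into a cerebral ventricle, and the vehicle group (n = 6) received PBS and was pair-fed to the intake of the FGF1 mice. All hypothalami were taken on Day 5, and every library held cells of 1 mouse. Both groups share leptin deficiency, and no lean mice and no vehicle mice with free feeding enter the comparison. FGF1 mice contributed 1531 of the cells (40 to 813 per mouse) and vehicle mice 7940 (423 to 2083 per mouse), and the summed depth was 44014 to 900258 UMIs (unique transcripts counted) in FGF1 mice and 521527 to 2136707 in vehicle mice. A second group of astrocytes, cluster 4, held the reverse mixture, with 3412 cells from FGF1 mice and 697 from vehicle mice. The clusters were formed from the same expression values that are compared below, so membership of the cluster and the values tested are not independent, and the values in cluster 4 and in both clusters merged are set beside those of cluster 1.

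Astrocytes clear glutamate and potassium from around synapses, wrap blood vessels with endfeet rich in the water channel Aqp4, supply neurons with lactate and cholesterol carried on lipoproteins, and turn reactive after injury, when intermediate filament genes such as Gfap and Vim rise. They carry FGF receptors, mainly Fgfr3, and respond to FGFs through the MAPK pathway. In the hypothalamus they border the neurons that sense nutrients and hormones.

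The astrocyte label was checked against the markers. Of the 20 clusters, cluster 1 had the highest level of each of Itih3 (2461 CPM, UMIs scaled to a common library total, all cells summed), an extracellular matrix component, the serine transporter gene Slc7a10 (350.0 CPM), the connexin gene Gjb6 (586 CPM), Agt (1612 CPM), which encodes angiotensinogen, and Fgfr3 (818 CPM), with cluster 4 next in every case. The marker plot shows these levels. Since these genes define the cluster, their level is a description only. A separate list of 12 astrocyte genes summed highest in cluster 4 (20005 CPM), with cluster 1 at rank 2 (14294 CPM). Cluster 1 was highest for none of the 12. Among the 20 clusters it ranked 13 for Gfap (49.4 CPM against 823 CPM in cluster 4), 7 for S100b, 6 for Sox9, 5 for Mlc1 and 2 for the rest. Aqp4 averaged 264 ± 28.9 CPM (SD, n = 6) in cluster 1 and 546 ± 135 CPM in cluster 4 of vehicle mice, and 491 ± 127 and 973 ± 172 CPM in those of FGF1 mice.

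**Figure D1:**
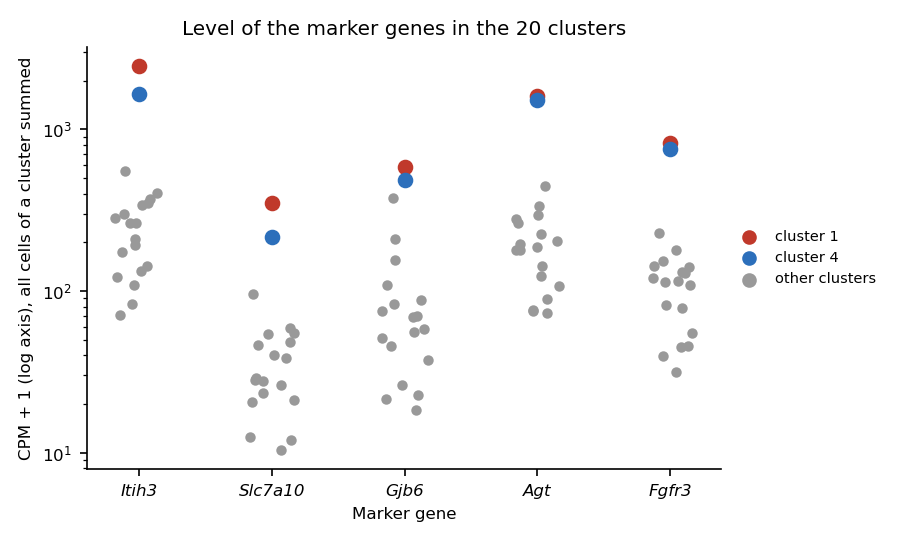
Level of 5 astrocyte marker genes (x axis) in each of the 20 clusters, as CPM + 1 on a log axis with all cells of a cluster summed. Cluster 1 (red) is highest for each gene and cluster 4 (blue) is next, for example 2461 against 1653 CPM for Itih3.

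The quality of the cells was compared first, and no measure passed a test. The median UMIs per cell averaged 1079 ± 178 (SD, n = 6) in FGF1 mice and 1097 ± 157 (SD, n = 6) in vehicle mice (exact permutation test, two-sided, p = 0.788, adjusted p = 0.803 over 4 measures), and the mitochondrial share was 15.4% ± 2.02 and 14.5% ± 1.73 (exact permutation p = 0.433). The smallest p that 6 against 6 mice allow is 0.00216. Of the distinct barcodes in the cluster, 64 of 9407 occurred in more than 1 library. Markers of other cell types were also counted in the cluster. The 9 neuron markers summed to 199 to 455 CPM in FGF1 mice (median 274) and 372 to 703 CPM in vehicle mice (median 487), with all 9 lower on average in FGF1 mice and none at 0, and their part in the results below was not tested. The 8 oligodendrocyte markers summed to 2252 to 3827 CPM in FGF1 mice and 1378 to 4094 CPM in vehicle mice, with 3 of 8 higher on average in FGF1 mice. Sums of the tanycyte, ependymal, OPC, microglial, endothelial and pericyte lists overlapped between the groups as well.

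FGF1 against vehicle changed 31 of the 7679 genes tested in cluster 1, which is 0.404% (edgeR quasi-likelihood test, Benjamini-Hochberg adjusted p below 0.05 over all genes tested). Of these, 17 were higher (0.221%) and 14 lower (0.182%) after FGF1. Genes with an unadjusted p below 0.05 numbered 769 (10%), and DESeq2 called 37, with 14 of the 31 among them. With the batch as a block 105 genes were called, with all 31 among them. That fit tested more genes, including ones with fewer counts, because the low-count filter follows the design. The median log2 fold change over all genes tested was -0.01 and that of the called genes 0.92 in absolute value, with a range of 0.56 to 1.51. The groups of mice did not overlap at all in 13 of the 31 called genes, beside 79 (1.03%) of all genes tested. Each batch held 1 FGF1 and 1 vehicle mouse, and 20 of the 31 genes moved the same way in all 6 batches. Plat, Aqp4, Abca1, Clu and Vim were among the genes that rose, and Idi1, Fdft1, Neat1, Tsc22d3 and Cox6c among those that fell.

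The genes with the lowest adjusted p were a protease, a water channel and a deacetylase, all higher after FGF1. Plat (chromosome 8, 22757727 to 22782844, GRCm38) encodes tissue plasminogen activator, a secreted protease that also cuts extracellular matrix. Its level ran from 61.6 to 172 CPM (median 102) in FGF1 mice and from 37.3 to 51.3 CPM (median 43) in vehicle mice, without overlap. The log2 fold change was 1.46 ± 0.18 (SE; adjusted p = 2.17e-06), and FGF1 exceeded vehicle in 6 of 6 batches by 0.44 to 1.91 on the log2 scale. Aqp4, the endfoot water channel, ranged from 382 to 711 CPM (median 447) after FGF1 and from 217 to 304 CPM (median 265) after vehicle. The lowest FGF1 mouse thus lay above the highest vehicle mouse, and the log2 fold change was 0.94 ± 0.14 (adjusted p = 0.000192). Sirt2 (chromosome 7, 28766735 to 28788661), an NAD-dependent deacetylase of tubulin whose exons overlap Nfkbib on the other strand, measured 273 to 362 CPM (median 314) in FGF1 mice and 149 to 189 CPM (median 173) in vehicle mice. It rose by 0.87 ± 0.14 on the log2 scale (adjusted p = 0.000192), again with no overlap, although its level was highest in another cluster (cluster 9, 6253 CPM against 187 CPM in cluster 1), and the part of oligodendrocyte RNA in the result was not tested. Of the other members of the list of 20 water, potassium and endfoot genes, none was called besides Aqp4. Mlc1, an endfoot membrane protein, showed a log2 fold change of 0.53 ± 0.13 (adjusted p = 0.0525), with groups that did not overlap. The list's median was -0.04, beside -0.01 for all genes.

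**Figure D2:**
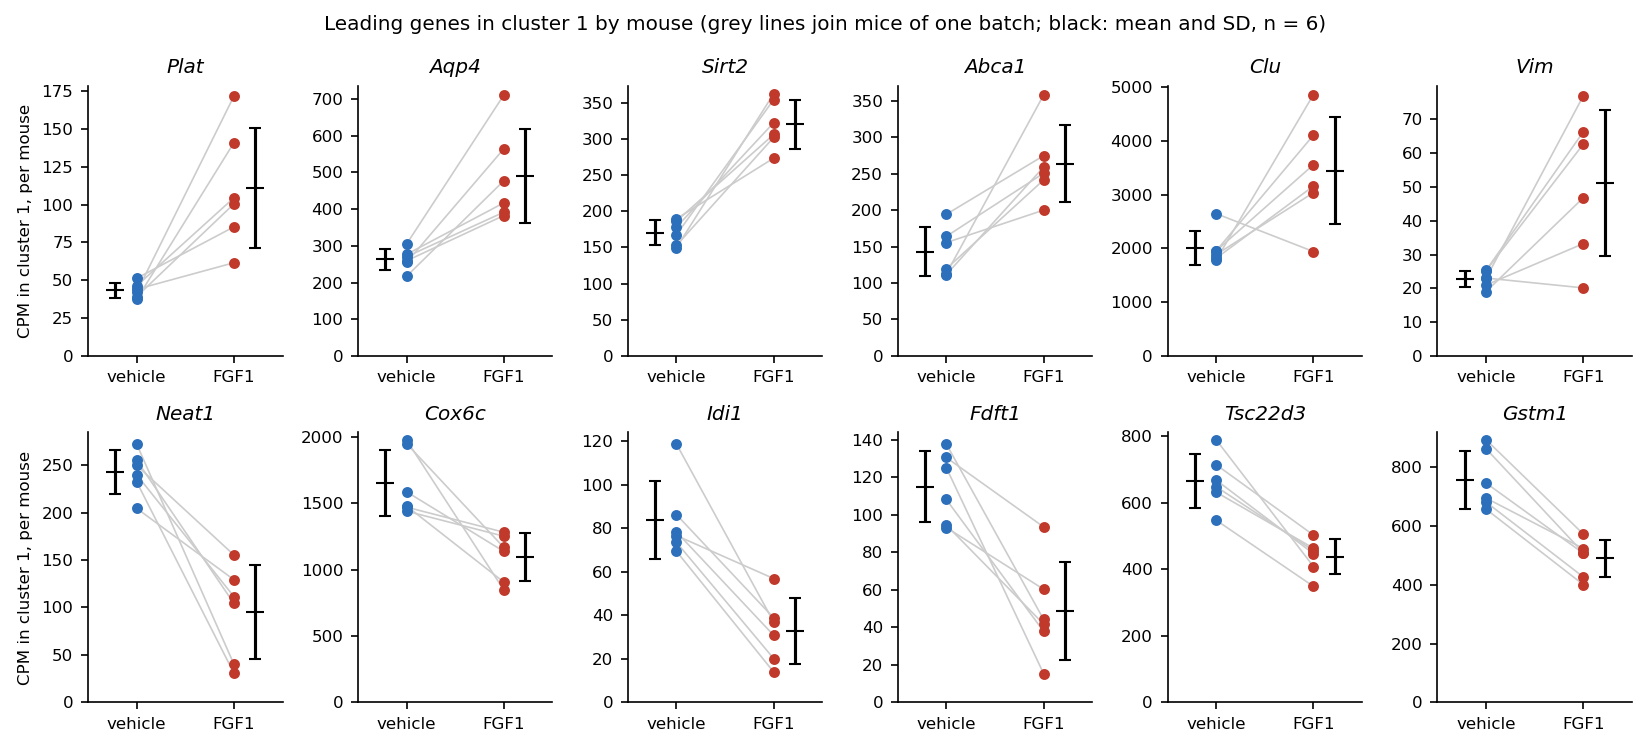
CPM in cluster 1 per mouse (y axis, from 0) for 12 called genes in vehicle (blue) and FGF1 (red) mice. Grey lines join the mice of one batch, and black marks give the mean and SD (n = 6). Plat, Aqp4, Sirt2 and Abca1 are higher in all 6 FGF1 mice than in any vehicle mouse, and Neat1, Idi1, Tsc22d3 and Gstm1 are lower in all 6.

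Abca1, Lcat and Clu were called higher. Abca1 (chromosome 4, 53030787 to 53159895), the transporter that passes cholesterol to apolipoproteins, ran from 200.1 to 358 CPM (median 255) in FGF1 mice and from 112 to 194 CPM (median 138) in vehicle mice. No values overlapped, and the log2 fold change was 0.96 ± 0.16 (adjusted p = 0.000383) with FGF1 higher in 6 of 6 batches. Lcat, which esterifies the cholesterol of such particles, averaged 102 ± 50.4 CPM (SD, n = 6) against 65.4 ± 9.30 (log2 fold change 0.90 ± 0.19, adjusted p = 0.0103). It was higher in 5 of 6 batches, and FGF1 mouse 7, with 40 cells, lay below all vehicle mice at 20.1 CPM. Clu, a secreted chaperone and lipoprotein component also called clusterin, was among the most abundant called genes. It ranged from 1943 to 4866 CPM (median 3361) after FGF1 and from 1787 to 2648 CPM (median 1921) after vehicle (log2 fold change 0.78 ± 0.15, adjusted p = 0.011), higher in 5 of 6 batches. Without the FGF1 mouse 10 library Lcat was no longer called. Of 29 tested genes of the list for fatty acids and lipid droplets, Abca1 was called, beside 0.221% of all genes called higher. The list median was 0.06. Apoe, the main astrocyte apolipoprotein gene, was at 4049 ± 2092 CPM (SD, n = 6) against 4113 ± 2309 CPM and was not called (-0.03 ± 0.40). Of 22 tested genes for synaptogenic and secreted proteins, Plat and Clu were called higher and none lower, beside 0.221% of all genes called higher. The median of the 22 was 0.21. An unadjusted p below 0.05 was met by 8 with higher and 2 with lower values. The 2 were Sparc (-0.36) and Itih3 (-0.31), the latter a marker of the cluster. Without FGF1 mouse 10 these counts were 3 higher and 3 lower and the median was 0.10, and without vehicle mouse 20 or 29 there were 5 higher. In all genes tested, 4.28% met that unadjusted mark with higher values.

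Idi1 and Fdft1 of the cholesterol synthesis list fell. The pathway turns acetyl-CoA into cholesterol by way of isoprenoids and squalene and is driven by the transcription factor SREBP2. Of 22 list genes tested, 3 were called lower and none higher, beside 0.182% of all genes called lower. A negative log2 fold change was found for 21, and the median was -0.57 beside -0.01 for all genes. An unadjusted p below 0.05 with lower values was met by 13 of 22, beside 5.73% of all genes tested. With single mice left out this count stayed between 11 and 16 and the median between -0.80 and -0.46, and among cells thinned to 1000 UMIs it was 10 of 17. With the batch as a block 6 of 23 were called lower, beside 73 of 9462 genes tested in that fit. DESeq2, which gave the 3 called genes no adjusted p, called none of 23, with 12 lower at an unadjusted p below 0.05. Idi1 (chromosome 13, 8885501 to 8892451), an isomerase early in the isoprenoid branch, ranged from 13.9 to 56.9 CPM (median 33.9) against 69.4 to 119 CPM (median 77.4), without overlap (log2 fold change -1.24 ± 0.22, adjusted p = 0.00129). Fdft1, which makes squalene, ranged from 15.4 to 93.6 CPM (median 43.1) against 93.3 to 138 CPM (median 117). A single FGF1 mouse touched the vehicle range, and the log2 fold change was -0.92 ± 0.21 (adjusted p = 0.0213); the call was lost without FGF1 mouse 6 or 10 or vehicle mouse 20 or 25, with at least 100 cells per mouse and among thinned cells. The levels of both rest on few transcripts in FGF1 mice, with 65 and 120 UMIs in total. Hmgcs1, which starts the pathway, averaged 121 ± 37.8 CPM (SD, n = 6) against 187 ± 46.9 CPM and did not pass (log2 fold change -0.73 ± 0.19, adjusted p = 0.0939). Values of the SREBP2 gene itself, Srebf2, were 90.4 ± 19.9 and 90.2 ± 11.3 CPM. Mfsd2a, a lysophosphatidylcholine transporter, was also called lower (-0.86 ± 0.21, adjusted p = 0.0436), with FGF1 higher in 1 of 6 batches. Its call was lost among thinned cells and in 8 of 12 fits without 1 mouse (FGF1 mouse 6, 10, 21 or 36 or vehicle mouse 20, 27, 29 or 35).

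The sequence just upstream of Hmgcs1 is shown because SREBP2 acts through a sterol regulatory element. The letters TCACNCCAC, on either strand, were searched in 300-base RefSeq promoter windows (build GRCm38.p6). Of 24 list genes 16 were found in the promoter table, and 1 of their 19 windows held the letters, that of Hmgcs1, beside 1.24% of all 32851 windows. Hmgcs1 itself was not called in cluster 1. The window of the called gene Idi1 held no match, and Fdft1 had no window to search. Hmgcs1 (chr13:119690101-119690350, + strand) is given 5′ to 3′ up to the base before the RefSeq start site, with the match in capitals, 137 bases upstream.
Hmgcs1: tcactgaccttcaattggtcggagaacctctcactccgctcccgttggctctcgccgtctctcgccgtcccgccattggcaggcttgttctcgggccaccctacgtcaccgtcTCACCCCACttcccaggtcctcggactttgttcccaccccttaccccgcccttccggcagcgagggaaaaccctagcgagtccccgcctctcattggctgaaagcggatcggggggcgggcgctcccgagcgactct

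Vim and Serpina3n of the pan-reactive list rose. Only 3 of the 13 genes of the pan-reactive list were abundant enough to be tested. Of these, 2 were called, both higher, beside 0.221% of all genes called higher. Vim, the intermediate filament vimentin, ran from 20.1 to 77 CPM (median 54.8) after FGF1 and from 19 to 25.3 CPM (median 23) after vehicle. The log2 fold change was 1.05 ± 0.24 (adjusted p = 0.0217), on 81 UMIs in FGF1 mice. The call was lost without FGF1 mouse 6, 21 or 36 or vehicle mouse 25, with at least 100 cells per mouse and among thinned cells. The study describes Vim as a marker that ependymal cells and tanycytes share, and the part of their RNA in the rise was not tested. Serpina3n, a secreted protease inhibitor that shares sequence with close paralogs, averaged 82.6 ± 45.2 CPM (SD, n = 6) against 41.1 ± 6.91 CPM (log2 fold change 0.88 ± 0.22, adjusted p = 0.0438). Its call was lost in 7 of 12 fits without 1 mouse, within the 20% limit on mitochondrial and ribosomal shares, with at least 100 cells per mouse and among thinned cells. With the batch as a block 5 of 7 tested genes of the list were called higher, beside 32 of 9462 genes tested in that fit. Its low-count filter follows the design and let in list genes that the main fit, with 3 tested, left out. DESeq2, which gave Vim and Serpina3n no adjusted p, called none of 12, with 8 higher at an unadjusted p below 0.05. No gene of the list was called without FGF1 mouse 6 or without vehicle mouse 25. Gfap, the classical astrocyte filament gene, stood at 107 ± 68.9 CPM against 46.2 ± 12.0 CPM and did not pass (0.93 ± 0.32, adjusted p = 0.285). Outside that list, the calcium-binding protein genes S100a6 (441 ± 84.6 against 265 ± 51.6 CPM, log2 fold change 0.71 ± 0.14, adjusted p = 0.00883) and S100a11 (26.9 ± 22.6 against 14.2 ± 3.66 CPM, adjusted p = 0.0438) were called higher, whereas S100a10 (0.55 ± 0.20, adjusted p = 0.269) and the astrocyte marker S100b (0.04 ± 0.14, adjusted p = 0.971) were not. The level of S100a6 was highest in another cluster (cluster 7, 6656 CPM against 289 CPM in cluster 1), and the part of RNA from other cells was not tested. S100a11 was at 0 in 2 FGF1 mice and rested on 62 UMIs. S100a11 lost its call in 6 of the 10 fits without 1 mouse that tested it. A2m, a broad protease inhibitor, rose by 1.51 ± 0.31 on the log2 scale (34.4 ± 16.5 against 12.9 ± 4.93 CPM, adjusted p = 0.0103), and without FGF1 mouse 10 it was no longer called (adjusted p = 0.247). Neither the A1 list (4 tested, injury by inflammation) nor the A2 list (2 tested, injury by ischaemia) had a called gene.

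Further called genes outside the lists were higher, among them Dhrs1, a short-chain dehydrogenase (0.86 ± 0.18, adjusted p = 0.00897), Kctd5, an adaptor of ubiquitin ligases (0.75 ± 0.16, adjusted p = 0.0152), and Elmo2, a partner in Rac activation (0.85 ± 0.18, adjusted p = 0.011). Kctd5 did not overlap between the groups, from 101 to 152 CPM after FGF1 and from 62.7 to 82 CPM after vehicle. Gpr179, an orphan receptor, was also without overlap (0.99 ± 0.23, adjusted p = 0.0339). Ccdc28a and Rpap1, an RNA polymerase II associated protein, were called higher at low levels, with mean values of 30.2 and 19.1 CPM in FGF1 mice, and each was at 0 in 1 FGF1 mouse. Ccdc28a lost its call in 9 of 12 fits without 1 mouse, with at least 100 cells per mouse and in the merged clusters, and Rpap1 lost it without FGF1 mouse 6 or 10 or vehicle mouse 27, in 3 of the 6 fits that tested it. Without FGF1 mouse 10 none of Dhrs1, Elmo2, Kctd5 and Gpr179 was called; Kctd5 was also lost without FGF1 mouse 6 or 36, and Gpr179 in 6 of 12 fits.

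The non-coding RNAs Neat1, 2900052N01Rik and Meg3 fell. Neat1, the scaffold RNA of nuclear paraspeckles, ran from 30.8 to 155 CPM (median 108) in FGF1 mice and from 204 to 272 CPM (median 245) in vehicle mice. No values overlapped, and the log2 fold change was -1.01 ± 0.17 (adjusted p = 0.000529), lower in 6 of 6 batches. The long non-coding RNA 2900052N01Rik, whose level was highest in cluster 1 among all clusters, ranged from 20.1 to 133 CPM against 137 to 290 CPM, without overlap (log2 fold change -1.47 ± 0.26, adjusted p = 0.0116). Meg3, an imprinted RNA abundant in neurons, averaged 92.7 ± 35.7 CPM against 176 ± 36.5 CPM (log2 fold change -1.10 ± 0.20, adjusted p = 0.0038). It is 1 of the 9 neuron markers whose sum was lower in FGF1 mice, the only called one of the 4 tested, and their median was -0.83. Hap1, a huntingtin partner in vesicle transport (-1.06 ± 0.25, adjusted p = 0.0341), was called as well, and both had their highest level in cluster 10, where the summed tanycyte markers were also highest. Without FGF1 mouse 36 Meg3 was no longer called, and Hap1 was not without FGF1 mouse 10, 21 or 36 or vehicle mouse 20, 25 or 29. Camk2n1, an inhibitor of CaM kinase II (-0.82 ± 0.19, adjusted p = 0.0341), by contrast had its highest level in cluster 1, and its call was lost in 7 of 12 fits without 1 mouse (FGF1 mouse 6, 7, 10, 21 or 36 or vehicle mouse 20 or 25). The part of neuronal RNA in these 3 results was not tested.

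Tsc22d3 (chromosome X, 140539528 to 140600659), a glucocorticoid-induced gene also known as GILZ, was lower after FGF1. It ran from 348 to 502 CPM (median 451) in FGF1 mice and from 547 to 788 CPM (median 657) in vehicle mice. The groups did not overlap, the log2 fold change was -0.62 ± 0.13 (adjusted p = 0.0116), and it stayed called in all 12 fits without 1 mouse. It was the only called gene of 15 tested glucocorticoid-responsive genes, beside 0.182% of all genes called lower. The median of the 15 was -0.17. Gstm1, a glutathione transferase, ran from 400.3 to 572 CPM against 657 to 893 CPM (log2 fold change -0.60 ± 0.13, adjusted p = 0.0153) and was the only called gene of 22 antioxidant and metallothionein genes (median -0.05). Its call was lost without FGF1 mouse 6 or vehicle mouse 27, with at least 100 cells per mouse and among thinned cells.

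Of the respiratory chain, Cox6c was called lower, and most other genes had small negative values that did not pass. Of 78 nuclear-encoded genes of oxidative phosphorylation tested, 72 had a negative log2 fold change, 24 had an unadjusted p below 0.05 with lower values, beside 5.73% of all genes, and the median was -0.23. Only Cox6c, a cytochrome oxidase subunit, was called, beside 0.182% of all genes called lower. With the batch as a block 4 of 81 were called lower, beside 73 of 9462 genes. Cox6c stood at 1098 ± 181 CPM (SD, n = 6) against 1650 ± 247 CPM (log2 fold change -0.56 ± 0.13, adjusted p = 0.026). Usmg5, a small subunit of ATP synthase outside that list, was called as well (-0.63 ± 0.14, adjusted p = 0.018), as was Bola2, which handles iron-sulphur clusters (-0.83 ± 0.20, adjusted p = 0.0448). Cox6c lost its call in 5 of 12 fits without 1 mouse (FGF1 mouse 6, 7 or 21 or vehicle mouse 20 or 25), Usmg5 in 4 (FGF1 mouse 10 or vehicle mouse 20, 25 or 27), and both lost it with at least 100 cells per mouse and among thinned cells. Bola2 lost it in 8 of 12 fits and with RLE size factors. The 13 genes encoded in mitochondria had none called and a median of -0.04, and the 82 cytosolic ribosomal protein genes had none called and a median of -0.11. With single mice left out the ribosomal median lay between -0.18 and -0.06. Its genes with lower values and an unadjusted p below 0.05 numbered 1 to 21 in those fits.

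**Figure D3:**
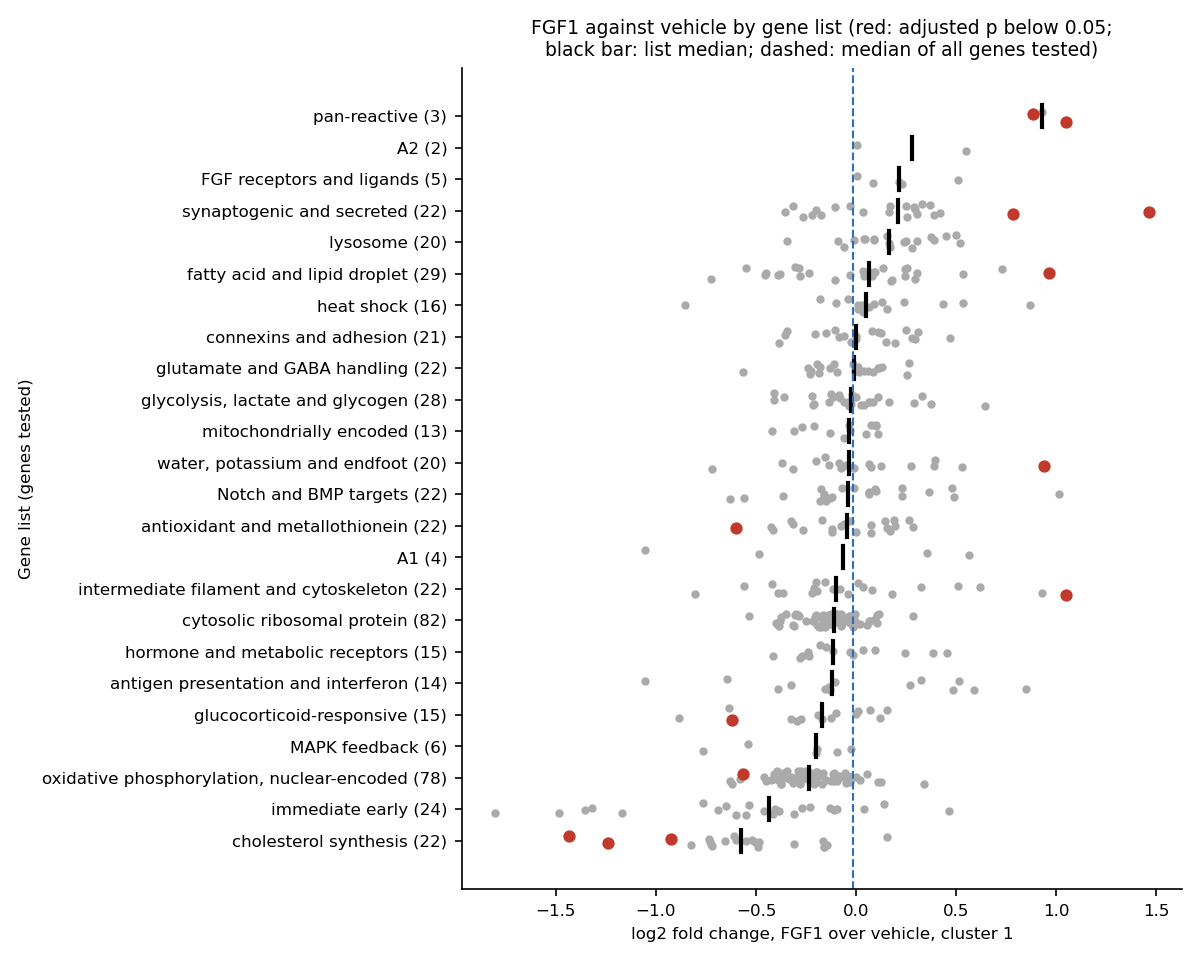
Log2 fold change of FGF1 over vehicle in cluster 1 (x axis) for the tested genes of each pathway list, without the cell type marker lists (y axis, number tested in brackets). Red points passed the test, black bars are list medians and the dashed line is the median of all genes (-0.01). Of the lists drawn, cholesterol synthesis has the lowest median (-0.57) and the 3 tested pan-reactive genes the highest (0.93).

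FGF signalling genes showed no called change. Fgfr3 was at 841 ± 85.1 CPM (SD, n = 6) in FGF1 mice and 849.9 ± 93.5 CPM in vehicle mice (log2 fold change 0.01, adjusted p = 1), and Fgfr1 at 125 ± 42.8 and 100.2 ± 8.89 CPM (0.23, adjusted p = 0.721). Fgfr2 stood at 29.6 ± 17.0 and 33.4 ± 5.76 CPM. Since Fgfr3 is a marker of the cluster, its level there is not independent of membership. Of 6 tested genes of MAPK feedback none was called, and the lowest unadjusted p values were those of Etv5 (-0.76 ± 0.23, adjusted p = 0.134), a transcription factor downstream of FGF, and the phosphatase gene Dusp6 (-0.54 ± 0.23, adjusted p = 0.368). None of 24 immediate early genes was called (median -0.44, or -0.25 without vehicle mouse 22; 6 with an unadjusted p below 0.05, all lower, beside 5.73% of all genes), where Dusp1 came nearest (-1.36 ± 0.32, adjusted p = 0.0866). With the batch as a block 7 of 27 were called lower, beside 73 of 9462 genes tested in that fit. DESeq2 called none of 38, with 7 lower at an unadjusted p below 0.05. Such genes respond to enzymatic dissociation, which all libraries underwent. Glutamate and GABA handling (22 genes, median -0.01), connexins and adhesion (21, median 0.00) and glycolysis (28, median -0.03) had none called.

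The cells of cluster 1 varied most among themselves in Malat1, Actb and Fos. The measure was the variance of Pearson residuals within a vehicle mouse (larger where cells differ by more than counting error), and the median over the 6 vehicle mice was 10.6 for Malat1, a nuclear RNA, 3.47 for Actb, the cytoskeletal actin gene, and 3.01 for Fos, an immediate early gene. Other leading genes were Cst3, mt-Atp6, mt-Co1, mt-Co3, G0s2, Cyr61, Mt1 and Gadd45g. None of the 12 most variable genes was called between FGF1 and vehicle.

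In cluster 4, which rests on 43 to 351 vehicle cells per mouse and shares the mice of cluster 1, 23 of 5967 genes (0.385%) were called. Of the 31 genes called in cluster 1, 29 were tested in cluster 4. There Aqp4 changed by 0.83 on the log2 scale (adjusted p = 0.000249), Neat1 by -1.11 (adjusted p = 0.000149) and Tsc22d3 by -0.86 (adjusted p = 0.000122). Plat gave 0.63 (adjusted p = 0.158) and Idi1 -0.90 (adjusted p = 0.275), and neither was called there. The cholesterol list had a median of -0.63. When clusters 1 and 4 were merged, 1240 of 9830 genes (12.6%) were called, 644 higher (6.55%) and 596 lower (6.06%). In this fit a change within a cluster and a different mixture of the clusters cannot be told apart. Gfap gave 2.21 (adjusted p = 0.0226) and Aqp4 1.53 (adjusted p = 8.08e-09), against 0.93 and 0.94 in cluster 1 and, for Gfap, -0.49 (adjusted p = 0.873) in cluster 4. The 14 lower and 0 higher calls among 23 tested cholesterol genes in the merged fit came with a median of -0.68. Abca1 (0.92) and Sirt2 (0.84) had merged values close to those in cluster 1 (0.96 and 0.87).

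The FGF1 effect itself was compared between the clusters, and 6 of 9365 genes (0.0641%) differed. A2m rose in cluster 1 but stood at 43.3 CPM in FGF1 and 51.0 CPM in vehicle mice in cluster 4, a difference of -1.85 ± 0.42 on the log2 scale (adjusted p = 0.0253). Igfbp5, a binding protein for insulin-like growth factors, differed by -0.93 ± 0.19 (adjusted p = 0.00676). Hes1, a Notch target (0.78), Ubb, a ubiquitin gene (0.49), Ptn, a secreted growth factor (0.49), and Sparc, a matrix protein (0.42), had higher values in cluster 4, where the median difference over all genes was 0.10. With RLE size factors that median was -0.02 and only Igfbp5 and A2m of the 6 were still called. None of the 6 was called by DESeq2 (adjusted p = 0.43 for A2m and 0.966 for the others) or without vehicle mouse 35.

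Nuclei from other mice offered a comparison with no shared animals. These were also male ob/ob mice, with the same FGF1 dose, age and pair-fed vehicle control as the whole-cell mice. Per the study, their supplier differed from that of the whole-cell mice. The nuclei came from frozen hypothalamic punches, and the whole cells from a triangular section of the mediobasal hypothalamus. The part of these differences in the comparison was not tested. Day 5 astrocyte nuclei came from 2 FGF1 mice (110 and 384 nuclei) and 2 vehicle mice (208 and 33 nuclei) of the single-nucleus data, in which 53 of 8484 genes (0.625%) were called, 3 higher (0.0354%) and 50 lower (0.589%). All 31 genes called in cluster 1 were tested in the nuclei, and 30 had a fold change of the same sign, beside 61.4% of the 6555 genes tested in both. Meg3 was the exception, at 0.09. The nuclei were all those annotated as astrocytes, with no split into the clusters of whole cells. In them, too, a change within a cluster and a different mixture of the clusters cannot be told apart. In the same nuclei the FGF1 libraries had lower values of ribosomal protein genes (median -1.07 over 77 tested), mitochondrially encoded genes (-1.06 over 12) and nuclear-encoded oxidative phosphorylation genes (-0.78 over 78), beside -0.02 for all genes, and the part of this shift in the other values was not tested. Plat (1.95, adjusted p = 0.0323) and Serpina3n (2.25, adjusted p = 0.0259) were called in both, whereas Aqp4 (1.67, adjusted p = 0.0571), A2m (1.95, adjusted p = 0.0513), Vim (2.01, adjusted p = 0.0546), Abca1 (1.05, adjusted p = 0.207) and Neat1 (-1.41, adjusted p = 0.13) were not. The cholesterol list had a median of -0.33 over 16 genes tested, with Idi1 at -0.72 and Fdft1 at -0.21. Without the vehicle mouse of 33 nuclei, 904 genes were called in the nuclei, and without the FGF1 mouse of 384 nuclei 13.

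**Figure D4:**
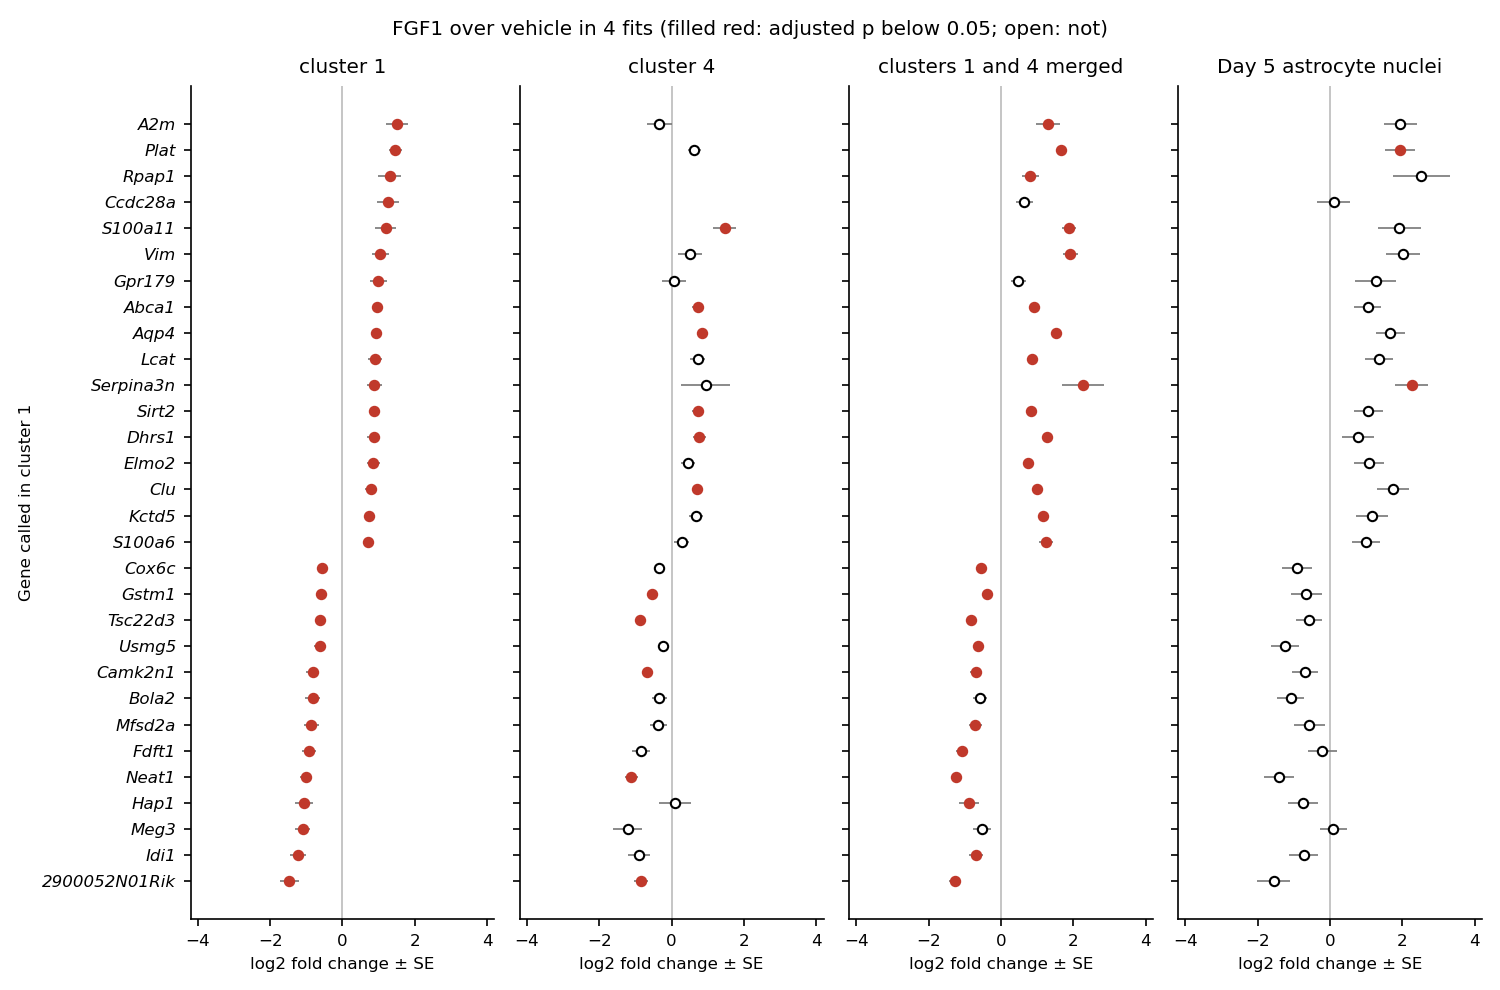
Log2 fold change of FGF1 over vehicle with SE (x axis) for 30 of the 31 genes called in cluster 1 (y axis), in cluster 1, in cluster 4, in both merged and in Day 5 astrocyte nuclei of other mice. Filled red points passed the test and open points did not. In the nuclei Meg3 (0.09) is the plotted gene that does not keep its sign.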

How the data were processed

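Hypothalamic cells of 12 ob/ob mice on Day 5 were profiled with the 10x 3′ v2 kit. Per the study's methods and the labels, the authors processed reads with Cell Ranger 1.2 and Seurat on GRCm38, removed doublets with Scrublet, neurons and mixed clusters, and deposited whole-number UMI counts per gene and cell. The cell table with cluster, mouse, batch and the percent of mitochondrial and ribosomal UMIs is also deposited by the authors. The deposited normalized tables were not used. Clusters equalled the deposited resolution of 0.6.

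Counts of cluster 1 were summed per mouse, genes filtered with filterByExpr, scaled by TMM and tested by edgeR 4.0.16 quasi-likelihood (limma 3.58.1, R 4.3.3) without covariates, FGF1 against vehicle. The same fit was run in cluster 4, both merged, and Day 5 astrocyte nuclei. The difference between clusters was an interaction term, with the mouse as a term in the fit. CPM of single genes per mouse are TMM-scaled counts. Levels per cluster and sums of marker lists are scaled to the total count without TMM. Within-batch log2 differences use CPM + 5. Quality measures were compared by exact permutation. DESeq2 1.42.0, RLE, no filter, batch as a block, the limit of 20% on mitochondrial and ribosomal shares, cells of 1000 or more UMIs thinned to 1000, mice with 100 or more cells, and leaving out each mouse were alternatives.

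Named genes were the 12 largest increases and 12 largest decreases among called genes with a mean of at least 20 CPM, up to 4 called and up to 4 most abundant genes of each list, the cluster markers and FGF receptors, the 8 lowest p values of the difference test and the 12 most variable genes. Some genes that this rule picked are not reported here. The remaining called genes, Dusp1, Dusp6 and other list members with an unadjusted p below 0.05 were named after their values were seen. The cells and gene lists were chosen with earlier results of these data known. Positions come from GENCODE M21 and promoters from RefSeq, and 64 of 9407 cluster barcodes occur in more than 1 library. On counts simulated for cluster 1 (7679 genes), 41 of 50 genes raised 2-fold and 27 of 50 lowered to 0.5-fold were called, with 2 false calls among 165. In the simulated difference between clusters (7679 genes), 20 of 50 and 9 of 50 such genes were called, with 9 false calls among 116.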

Additional observations from a re-analysis of the deposited data

Results flagged for a closer look

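Single mice stood apart from the 5 others of their group in 7 of 76 groups of values tested, where chance flags about 1 in 20. Mfsd2a was at 161 CPM in FGF1 mouse 7, whose cluster held 40 cells, and the nearest other FGF1 mouse was at 76.6 CPM. Clu was at 2648 CPM in vehicle mouse 22, with the next vehicle mouse at 1956 CPM. Idi1 was at 119 CPM in vehicle mouse 35, above 86.2 CPM in the next. Meg3 was at 160 CPM in FGF1 mouse 28, above 94.8 CPM in the next. The median UMIs per cell were 1436.5 in FGF1 mouse 10, next to 1045, and its median genes per cell were 780.5 next to 610. Vehicle mouse 35, of the same batch, had a median of 766 genes per cell, next to 643.

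The FGF1 effect differed between the clusters, by a test of the difference itself, for Igfbp5 (-0.93 on the log2 scale, cluster 4 minus cluster 1), A2m (-1.85), Ptn (0.49), Sparc (0.42), Ubb (0.49) and Hes1 (0.78). All 6 kept their sign in the 15 other fits. Igfbp5 was called in 8 of 12 fits without 1 mouse, A2m in 5, Sparc and Hes1 in 3, Ptn in 2 and Ubb in 0.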

How the results depend on the processing

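Of the 31 genes called in cluster 1, 0 changed sign in any alternative, and 11 were called in all 12 fits without 1 mouse. Called again were 31 with the batch as a block, 31 without the filter on low counts, 30 with RLE size factors, 29 within the 20% limit, 21 among thinned cells, 18 with at least 100 cells per mouse, and 14 with DESeq2. Of the 31, DESeq2 gave an adjusted p to these 14 only. The others, among them Plat, Idi1, Fdft1, Vim and Serpina3n, could not be called there. Beside the losses given above, Clu, 2900052N01Rik, Hap1, Camk2n1, Gpr179 and Bola2 were not called with at least 100 cells per mouse, Dhrs1, Kctd5 and Gpr179 among thinned cells, Camk2n1 within the 20% limit, and Meg3, Gpr179 and Bola2 in the merged clusters. The count of called genes was 95 without the filter, 105 with the batch as a block (32 higher), 19 with at least 100 cells per mouse, 12 with an absolute log2 fold change above 1 and 1240 for the merged clusters, and it ranged from 17 (without FGF1 mouse 10) to 54 (without FGF1 mouse 28 or vehicle mouse 22) when 1 mouse was left out. In cluster 4 the count was 81 without the filter, 35 with DESeq2, 38 with the batch as a block and 9 to 32 without 1 mouse. In the nuclei it was 81 with RLE size factors, 173 without the filter, 26 with DESeq2 and 13 to 904 without 1 mouse. For the difference between clusters it was 3 with RLE size factors, 33 without the filter, 1 with DESeq2 (none of the 6) and 0 to 7 without 1 mouse. The merged count was 831 to 1243 without 1 mouse. Fgfr3, at 0.01, changed sign to -0.0819 without the filter, -0.0426 with the batch as a block, -0.134 among thinned cells and -0.155 in the merged clusters, and ranged from -0.0456 to 0.0511 without 1 mouse. The cause of these changes was not tested.

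By replicate number, no paired analysis was possible because the FGF1 and vehicle mice of the whole-cell data share none. Mice were paired by batch instead, in the fit with the batch as a block. The FGF1 libraries of 40 to 135 cells limit precision: 1 UMI equals 20.1 CPM in FGF1 mouse 7. The labels name separate mice, so the p-values rest on the spread between libraries of separate animals. That spread also holds differences between batches and counting error.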

Other observations

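Of 20 tested genes of the lysosome list none was called in cluster 1, 6 had an unadjusted p below 0.05 with higher values, beside 4.28% of all genes, and the median was 0.17. Without FGF1 mouse 10 the count was 4 and the median 0.06. Lamp1, a lysosomal membrane protein, averaged 533 ± 136 CPM (SD, n = 6) against 365 ± 30.4 CPM (log2 fold change 0.52 ± 0.14, adjusted p = 0.0939), and Psap, the saposin precursor, 1547 ± 234 CPM against 1181 ± 83.0 CPM (0.39 ± 0.12, adjusted p = 0.175). Of the actin and tubulin genes, Actg1 had a log2 fold change of -0.56 ± 0.15 (adjusted p = 0.0761) and Tuba1a one of 0.51 ± 0.15 (adjusted p = 0.124). Id3, a target of BMP signalling, was at 690.1 ± 266 CPM against 346 ± 81.4 CPM (1.01 ± 0.26, adjusted p = 0.162). The list of Notch and BMP targets (22 tested) had none called, 10 higher and 12 lower, and a median of -0.04.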
